A study of Danio rerio with 5 samples.

Results

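The 4 genes of hox paralogue group 5 were described in motor neurons from the posterior and the anterior end of the zebrafish vagus nucleus. They were taken by Ensembl identifier from 31953 genes in the count tables and comprised both genes listed as HOXB5 (ENSDARG00000013057 and ENSDARG00000054030), hoxc5a (ENSDARG00000070340, listed as HOXC5) and hoxa5a (ENSDARG00000102501, listed as HOXA5). RefSeq names hoxb5a and hoxb5b, but no table used here ties either name to an identifier, so the HOXB5 duplicates are told apart by identifier and are not placed in the hoxba or hoxbb cluster. All libraries came from Tg(isl1:Kaede) embryos of 28 to 30 hours after fertilisation. This transgene drives the photoconvertible protein Kaede under isl1 control, so it marks isl1-expressing neurons and not the vagus nucleus alone. Cells converted by light at 1 end of the nucleus were picked by hand, 100 per library, which gave 3 posterior libraries (B, G and R) and 2 anterior libraries (B and G). No further allele or agent is given for either group. The labels do not say whether libraries came from separate embryos or sessions, so p-values measure the spread between these libraries, which may be partly technical. No sequences of these genes were used here.

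Hox genes encode homeodomain transcription factors and lie in clusters in which the order of the genes mirrors the order of their expression limits along the body axis. Retinoic acid, made by the somites beside the posterior hindbrain, helps set up these domains in the embryo, and Hox proteins bind DNA together with Pbx and Meis cofactors. Group 5 genes have anterior limits near the junction of hindbrain and spinal cord. In zebrafish they are known to be expressed in posterior vagus motor neurons and to influence which branch of the vagus nerve an axon takes. Zebrafish keep more hox clusters than mammals because of a whole-genome duplication in the teleost lineage, which is the source of the paired HOXB5 genes.

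Reads given to genes numbered 14932562 to 19197178 in posterior and 17433311 to 20088585 in anterior libraries, and 10463 to 13289 and 12241 to 13589 genes had at least 1 count. ISL1, which defines the transgene's cells, was at 1805, 1817 and 2255 CPM in posterior libraries B, G and R, against 2381 and 1848 CPM in anterior libraries B and G. PHOX2A, a further gene of cranial motor neurons, was at 1466, 106 and 310.2 CPM in posterior libraries, against 84.9 and 220.0 CPM in anterior libraries. Summed over the 16 matched genes of the branchiomotor list, levels were 7694 to 8033 CPM in posterior and 7047 to 7967 CPM in anterior libraries. Genes with many reads, such as ISL1, weigh most in this sum. Of the 13 tested genes of the list, 5 had a log2 fold change (posterior over anterior) above 0, against 47.9% of all tested genes. The median of the 13 was -0.36. Of the 13, 1 lay lower in every posterior library and 1 higher, against 12.3% and 9.57% of all tested genes. RET was the lower one, at 207, 262 and 93.8 CPM, against 482 and 324 CPM in anterior libraries. The gene gfra1a was higher in every posterior library, at 34.2, 27.4 and 28.1 CPM, against 15.5 and 7.72 CPM. CPM are counts scaled to a TMM-adjusted library total of 1e+06. They are not divided by transcript length, so levels are compared between libraries and not between genes.

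All 4 group 5 genes were higher in every posterior library than in any anterior library. Over all 11827 tested genes, 9.57% had posterior libraries that all lay above the anterior ones. None of the 4 passed an adjusted p of 0.05 in the edgeR quasi-likelihood test, and 0% of tested genes did. The smallest adjusted p of any gene was 0.219, and DESeq2, an alternative count model, called 252 genes. At an unadjusted p under 0.05 all 4 were higher in posterior cells, where 2.28% of tested genes were higher and 4.21% were lower. In libraries of pooled cells, more cells with a transcript and more transcript per cell cannot be told apart. The whole group summed to 2165 ± 193 CPM in posterior libraries (SD, n = 3) and 708 ± 156 CPM in anterior libraries (SD, n = 2).

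**Figure D1:**
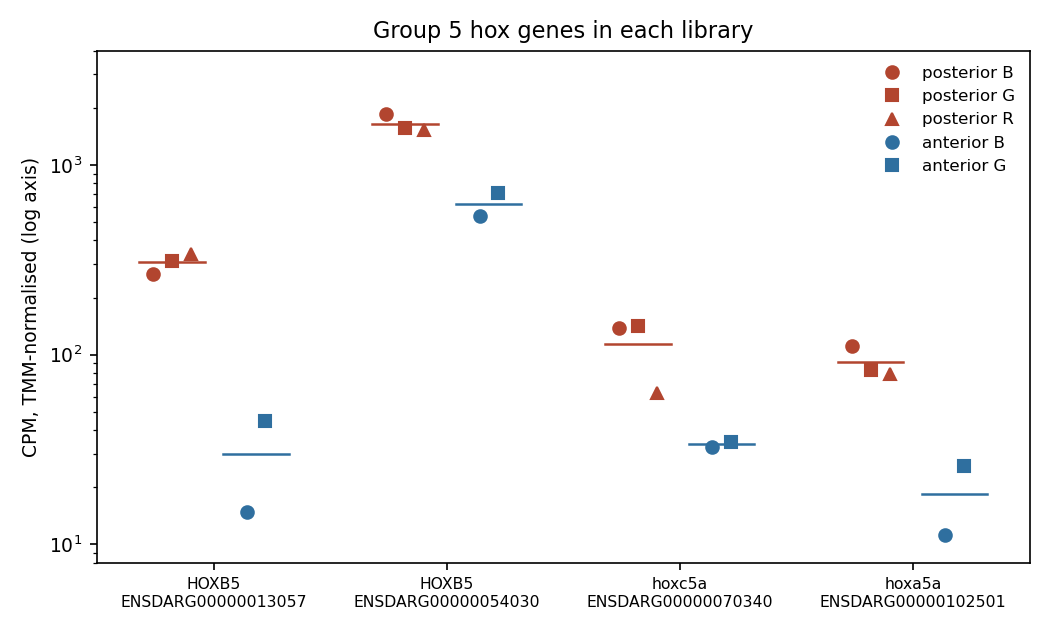
TMM-normalised CPM (log axis) of the 4 group 5 genes in each library; points are libraries and lines are group means. Posterior libraries lie above anterior libraries for each gene, by the widest gap for HOXB5 ENSDARG00000013057 (266.5 CPM in the lowest posterior library, against 44.7 CPM in the highest anterior library).

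The HOXB5 duplicates encode Hox5 transcription factors of the B clusters. HOXB5 ENSDARG00000013057 was at 266.5, 313 and 340 CPM in posterior libraries B, G and R, against 14.9 and 44.7 CPM in anterior libraries B and G. These values rest on 4107, 4945 and 6434 reads in posterior libraries, against 252 and 904 reads in anterior libraries. The lowest posterior library was 5.96 times the highest anterior one, the widest gap among the 4 genes. Its log2 fold change, posterior over anterior, was 3.32 ± 0.61 (SE) in edgeR (p 0.000146, adjusted p 0.345). Of 11827 tested genes, 4 had a smaller p and 787 had a higher log2 fold change. The anterior libraries differed 3.01-fold from each other and the posterior libraries 1.27-fold.

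HOXB5 ENSDARG00000054030 was at 1865, 1571 and 1524 CPM in posterior libraries B, G and R, against 539 and 713 CPM in anterior libraries B and G. The groups did not overlap, and the lowest posterior library was 2.14 times the highest anterior one. The log2 fold change was 1.40 ± 0.28 (SE; edgeR p 0.000303, adjusted p 0.359). These values rest on 24785 to 28871 reads in posterior and 9137 to 14412 reads in anterior libraries. The fitted fold was 2.64 for this gene and 9.99 for HOXB5 ENSDARG00000013057.

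The gene hoxc5a, the group 5 member of the hoxca cluster, was at 138, 142 and 62.5 CPM in posterior libraries B, G and R, against 32.7 and 34.7 CPM in anterior libraries B and G. Posterior R was the low library of its group and still stood 1.80 times above the highest anterior library. The log2 fold change was 1.74 ± 0.72 (SE; edgeR p 0.0337, adjusted p 0.726). Within groups it was the most even of the 4 genes at the anterior end, where libraries differed 1.06-fold, and the least even at the posterior end, where they differed 2.27-fold.

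The gene hoxa5a, the group 5 member of the hoxaa cluster, was at 111, 82.9 and 79.4 CPM in posterior libraries B, G and R, against 11.2 and 25.9 CPM in anterior libraries B and G. These values rest on 1308 to 1705 reads in posterior libraries, against 189 and 524 reads in anterior ones. The lowest posterior library was 3.06 times the highest anterior one, so the groups did not overlap. The log2 fold change was 2.25 ± 0.81 (SE; edgeR p 0.0165, adjusted p 0.726).

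Anterior G was above anterior B for each of the 4 genes, by 3.01-fold for HOXB5 ENSDARG00000013057, 2.33-fold for hoxa5a, 1.32-fold for HOXB5 ENSDARG00000054030 and 1.06-fold for hoxc5a. The size of each difference between the ends therefore moved with the anterior library used. Without anterior G, the log2 fold change of HOXB5 ENSDARG00000013057 was 4.36, and without anterior B it was 2.78. For hoxa5a these values were 3.01 and 1.80, for HOXB5 ENSDARG00000054030 1.61 and 1.21, and for hoxc5a 1.77 and 1.69. No setting turned the direction of any of the 4 genes. DESeq2, which called 2.13% of tested genes in either direction and 1.33% as higher in posterior cells, gave an adjusted p of 1.31e-05 for HOXB5 ENSDARG00000013057 and 1.85e-05 for ENSDARG00000054030. It gave 0.227 for hoxc5a and 0.0778 for hoxa5a. These were the lowest adjusted p of each gene over the 12 distinct alternatives, and the highest ran from 0.925 for both HOXB5 genes to 0.998 for hoxc5a and hoxa5a.

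**Figure D2:**
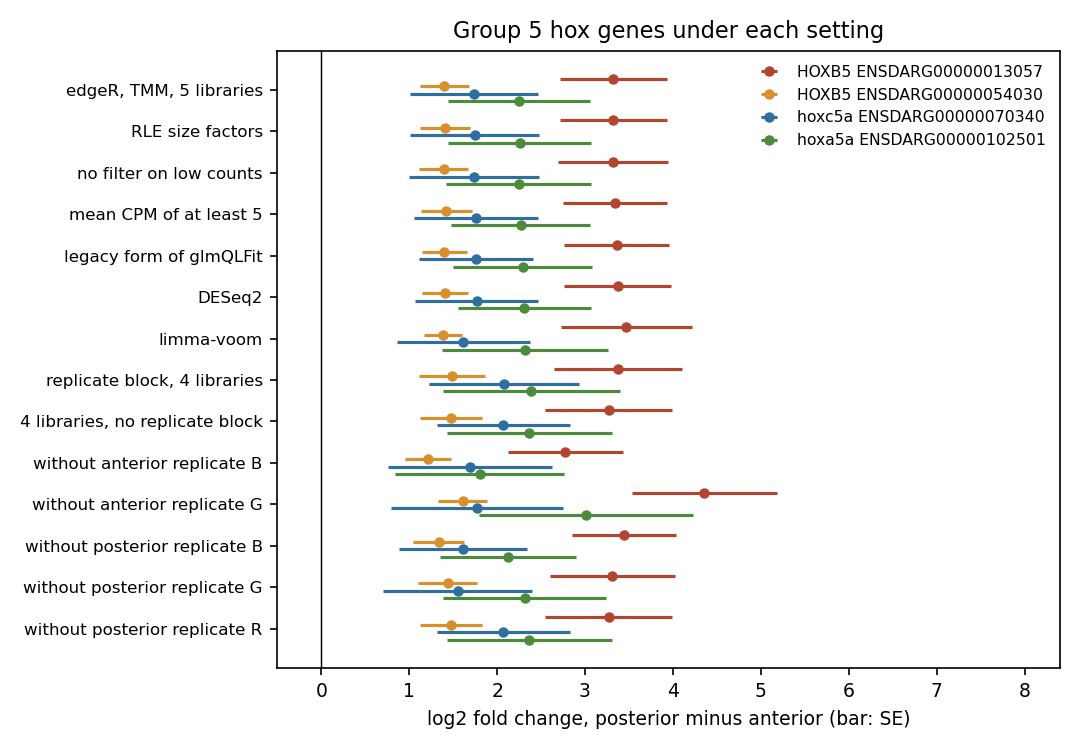
Log2 fold change (posterior minus anterior) of each group 5 gene under 14 settings, with SE bars; settings run down the page, and the 4 libraries with no replicate block are the same fit as that without posterior R. All values lie right of 0, from 1.21 for HOXB5 ENSDARG00000054030 without anterior B to 4.36 for HOXB5 ENSDARG00000013057 without anterior G.

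The duplicates were set against each other within each library, a measure that does not depend on depth or scaling. HOXB5 ENSDARG00000013057 took 12.5%, 16.6% and 18.2% of the reads of both HOXB5 genes in posterior B, G and R, against 2.68% and 5.90% in anterior B and G. The 95% Wilson intervals ran from 12.2% to 12.9%, 16.2% to 17.1% and 17.8% to 18.6% in posterior libraries, against 2.38% to 3.03% and 5.54% to 6.29% in anterior libraries. They cover the counting of reads only. All 3 posterior shares lay above both anterior shares, with means of 15.8% ± 2.95 (SD, n = 3) in posterior and 4.29% ± 2.28 (SD, n = 2) in anterior libraries. On the log2 scale the ratio of ENSDARG00000013057 to ENSDARG00000054030 was 2.15 higher in posterior cells (exact permutation test over libraries, two-sided p = 0.2, n = 3 and 2). With 3 libraries against 2, 0.2 is the smallest p this test can give. Reads that aligned to several places were left out of the gene counts, so reads from stretches the duplicates share are missing from both.

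**Figure D3:**
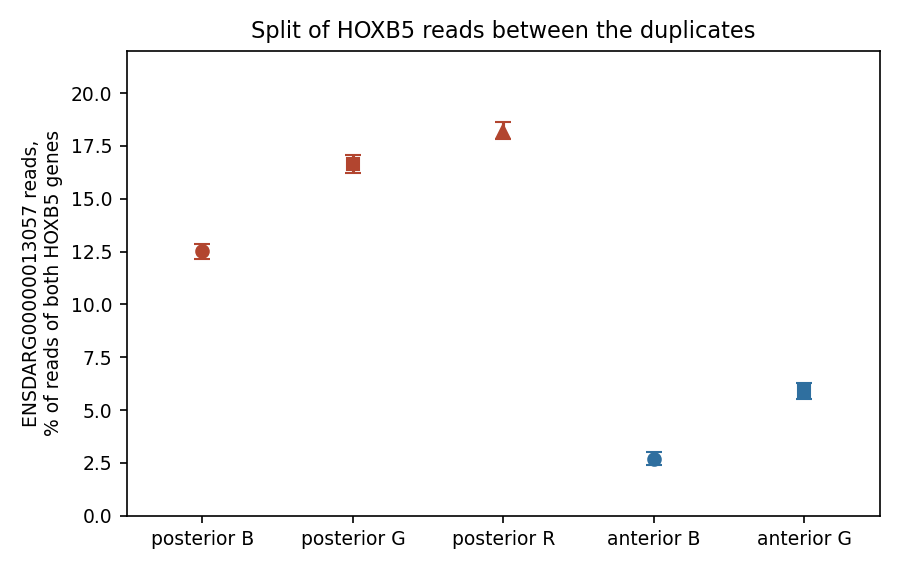
Reads of HOXB5 ENSDARG00000013057 as a percentage of the reads of both HOXB5 genes in each library, with 95% Wilson intervals. The posterior libraries lie at 12.5% to 18.2% and the anterior libraries at 2.68% and 5.90%.

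The same was done for all 6 pairs of the 4 genes, and the p-values of the exact permutation test were adjusted over these 6. The adjusted p was 0.3 for the 4 pairs whose libraries separated, which is the lowest value reached. The ratio of hoxc5a to HOXB5 ENSDARG00000013057 was lower in posterior cells, by a log2 difference of -1.90, and that of hoxa5a to the same gene by -1.16. The ratio of hoxa5a to HOXB5 ENSDARG00000054030 was higher, by 0.99. In 2 pairs the libraries of the groups overlapped. The log2 ratio of hoxc5a to HOXB5 ENSDARG00000054030 was -3.95 ± 0.59 (SD, n = 3) in posterior and -4.20 ± 0.22 (SD, n = 2) in anterior libraries, a difference of 0.26 (exact permutation p = 0.6, adjusted 0.6). The log2 ratio of hoxa5a to hoxc5a was -0.25 ± 0.56 (SD, n = 3) in posterior and -0.99 ± 0.80 (SD, n = 2) in anterior libraries, a difference of 0.74 (exact permutation p = 0.4, adjusted 0.48).

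The make-up of the group's reads differed between the ends. HOXB5 ENSDARG00000054030 gave 78.4%, 74.5% and 76.0% of group 5 reads in posterior B, G and R, against 90.2% and 87.1% in anterior B and G. HOXB5 ENSDARG00000013057 gave 11.2%, 14.9% and 16.9% in posterior B, G and R, against 2.49% and 5.46% in anterior B and G. The share of hoxc5a was 5.21% ± 1.87 (SD, n = 3) in posterior and 4.86% ± 0.87 (SD, n = 2) in anterior libraries, so it differed by less than its spread. The share of hoxa5a was 4.18% ± 0.41 (SD, n = 3) in posterior and 2.52% ± 0.92 (SD, n = 2) in anterior libraries. Shares are of reads and were not corrected for transcript length.

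Among hox genes as a whole, 25 of the 47 found by symbol were tested, and 21 of these were outside group 5. Group 5 gave 34.9%, 34.8% and 32.9% of all hox reads in posterior B, G and R, against 25.2% and 22.4% in anterior B and G. The other hox genes summed to 4441, 3958 and 4088 CPM in posterior libraries, against 1779 and 2839 CPM in anterior libraries. Of the 21, 13 had a log2 fold change above 0, against 47.9% of all tested genes, and 8 had posterior libraries all above the anterior ones, against 9.57% of all tested genes. Their median log2 fold change was 1.13, that of the 4 group 5 genes was 1.99 and that of all tested genes was -0.055. By group number, the median was 0.47 for groups 1 to 4 and 2.23 for tested genes of groups 6 to 9. The group 5 median thus lay between these values. Direction did not follow group number throughout, since 7 of 13 genes of groups 1 to 4 and 6 of 8 tested genes of groups 6 to 9 were higher in posterior cells. All 4 genes of group 5 were.

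**Figure D4:**
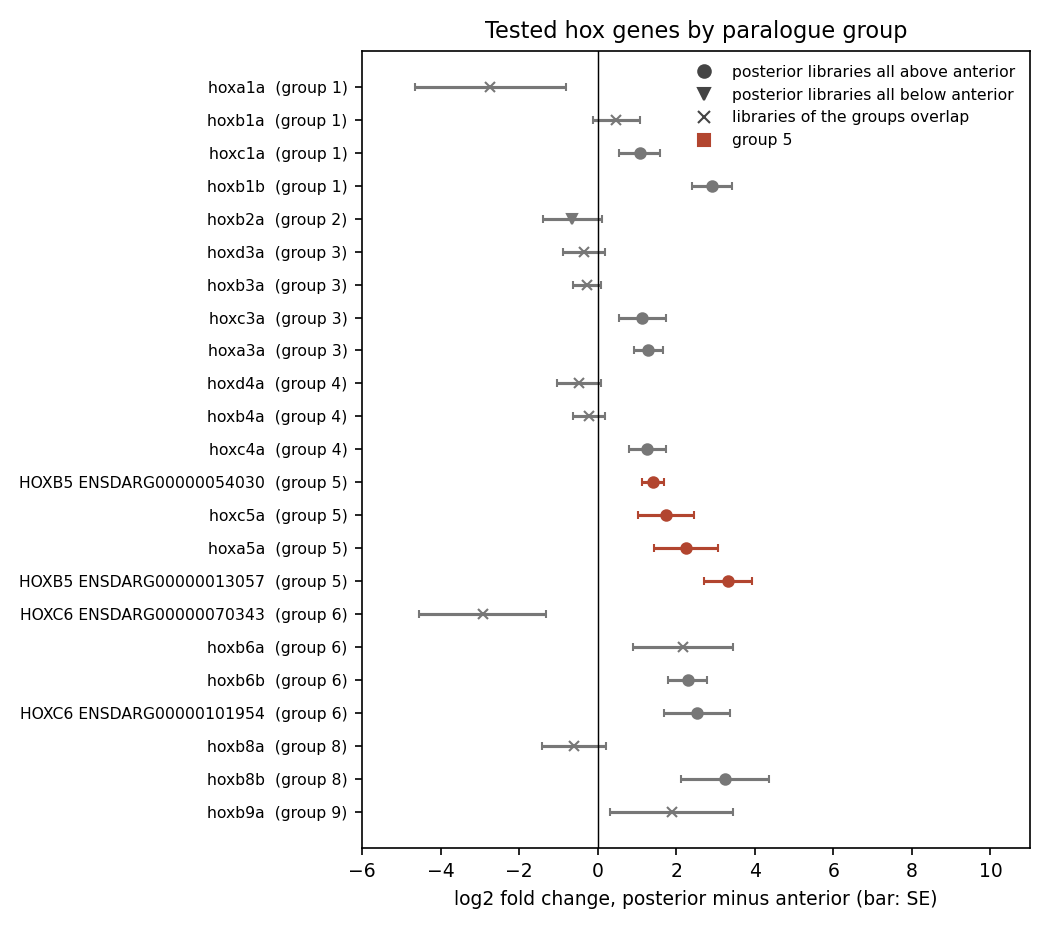
Log2 fold change (posterior minus anterior, SE bars) of tested hox genes with more than 3 counts in a library of each group, ordered by paralogue group; symbols show whether the groups' libraries overlap. The group 5 genes, in red, run from 1.40 to 3.32 with no overlap, whereas group 4 holds genes on both sides of 0 (hoxd4a at -0.48, hoxc4a at 1.26).

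The clusters were compared through the hox genes whose copy could be settled by name. In hoxbb, all 3 other genes had posterior libraries above the anterior ones, against 9.57% of all tested genes. The gene hoxb1b, the hindbrain-patterning group 1 gene of that cluster, was at 471, 348 and 342 CPM in posterior libraries B, G and R, against 52.7 and 49.8 CPM in anterior libraries B and G, 2.92 ± 0.51 higher on the log2 scale (SE; adjusted p in edgeR 0.279). The genes hoxb6b and hoxb8b had log2 fold changes of 2.29 and 3.24 (edgeR adjusted p 0.446 and 0.726). For hoxb8b the SE was 1.11, with 0 counts in anterior B and 379 in anterior G. In hoxba, 0 of 8 tested genes outside group 5 had posterior libraries all above the anterior ones, against 9.57% of all tested genes. Of these 8, 1 (hoxb2a) had them all below, as 12.3% of all tested genes did. There hoxb4a was at 261, 255 and 308 CPM in posterior libraries B, G and R, against 251 and 388 CPM in anterior libraries B and G, and hoxb3a was likewise overlapping, with log2 fold changes of -0.22 and -0.28. The remaining hoxba genes were hoxb1a (0.47), hoxb6a (2.17), hoxb8a (-0.61), hoxb9a (1.89) and hoxb7a, which had 0 counts in both anterior libraries and in posterior R. Without an assignment of the HOXB5 identifiers, neither duplicate can be set against its own neighbours.

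The 3 other tested genes placed in hoxca by name had posterior libraries all above the anterior ones, against 9.57% of all tested genes. These were hoxc1a, hoxc3a and hoxc4a. Their log2 fold changes were 1.06, 1.13 and 1.26, against 1.74 for hoxc5a. The next gene along, hoxc4a, was at 308, 265.0 and 287 CPM in posterior libraries B, G and R, against 96.9 and 140.1 CPM in anterior libraries B and G. Neither gene listed as HOXC6 could be placed in a cluster by name, so hoxc6a, on the other side of hoxc5a, is not identified. ENSDARG00000101954 was at 238, 77.9 and 125 CPM in posterior libraries B, G and R, against 6.43 and 41.8 CPM in anterior B and G. The other, ENSDARG00000070343, was at 12.4 CPM in posterior G and 57.1 CPM in anterior G and at or near 0 elsewhere. Log2 fold changes were 2.53 for ENSDARG00000101954 and -2.93 for ENSDARG00000070343. In hoxaa, hoxa3a was at 1010, 840 and 673 CPM in posterior libraries B, G and R, against 250.3 and 434 CPM in anterior libraries B and G (log2 fold change 1.29), while hoxa1a overlapped between groups. Both tested hoxd genes, hoxd3a and hoxd4a, overlapped between groups, and the D cluster has no group 5 gene in the list used.

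Hox genes lie close together, and in the RefSeq annotation each group 5 gene lies within the span of at least 1 other gene. The span of hoxb3a covers hoxb5a, that of hoxb1b covers hoxb5b, that of hoxc3a covers hoxc5a and those of hoxa3a and evx1 cover hoxa5a. A lncRNA also spans hoxb5b and another spans hoxc5a, and a pseudogene spans hoxb5b. This annotation is of another build than the one the counts were made on. Reads that fall on exons of more than 1 gene were counted as ambiguous, at 0.819% to 1.03% of reads in posterior and 0.846% to 0.966% in anterior libraries. The use of strand is not given in the sources used here, so reads of overlapping hox transcripts and of antisense transcripts cannot be told apart.

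The level of some other cells' markers moved with the same contrast. DRGX, a gene of sensory ganglion neurons and of some brainstem neurons, was at 150.2, 61.4 and 109 CPM in posterior libraries B, G and R, against 0 and 0.099 CPM in anterior libraries B and G. The 5 matched genes of the sensory ganglion list summed to 65.3 to 237 CPM in posterior and 5.94 to 62.7 CPM in anterior libraries. Without DRGX the sums overlapped, at 38.7, 3.93 and 128 CPM in posterior libraries B, G and R, against 62.7 and 5.84 CPM in anterior libraries B and G. The spinal motor neuron list summed to 49.1 to 133 CPM in posterior and 154 to 272 CPM in anterior libraries. LHX4 made up 79.2% to 100% of this sum in posterior and 91.9% to 100% in anterior libraries. Its defining gene MNX1 was at 2.60, 0 and 12.2 CPM in posterior libraries B, G and R, against 0 in both anterior libraries, and mnx2b was seen only in posterior R, at 15.4 CPM. Posterior R was also the only library with reads of hoxc8a (426 reads), hoxa9a (154), hoxd9a (46) and hoxd10a (20). Tested genes of groups 8 and 9 were not confined to it. The gene hoxb9a had 251 reads in posterior G, 1051 in posterior R and 257 in anterior G. Reads were highest in posterior R for hoxb8b (3068) and in anterior G for hoxb8a (2040). Without posterior R, the group 5 log2 fold changes were 3.27 for HOXB5 ENSDARG00000013057, 1.48 for ENSDARG00000054030, 2.07 for hoxc5a and 2.37 for hoxa5a. The interneuron list summed to 10.8 to 55.5 CPM in posterior and 89.1 to 318 CPM in anterior libraries. Of its 4 tested genes, 1 had posterior libraries all below the anterior ones and 1 had them all above. Over all tested genes these shares were 12.3% and 9.57%. The first was en1b, at 0, 0 and 3.06 CPM in posterior libraries B, G and R, against 51.0 and 98.4 CPM in anterior libraries. The other was lhx1a, at 10.5, 3.55 and 17.4 CPM, against 0.354 and 0 CPM. PAX2 ENSDARG00000028148 was at 133 CPM in anterior G, 22.8 CPM in posterior G and near 0 elsewhere. The muscle list summed to 0.844 to 13.5 CPM in posterior libraries and to 0 in anterior ones. The sums of the progenitor and glia list overlapped, at 2929 to 3625 CPM in posterior and 2424 to 4120 CPM in anterior libraries. Of 6 tested progenitor and glia genes, 1 had posterior libraries all above the anterior ones, against 9.57% of all tested genes. This was PCNA, at 1420, 1450 and 1076 CPM in posterior libraries B, G and R, against 876 and 859 CPM in anterior libraries. The sums of the skin list also overlapped, at 0.324 to 5.22 CPM in posterior and 0 to 60.7 CPM in anterior libraries. Blood and neural crest lists stayed at or under 0.148 CPM in all libraries, and of the endothelial list kdrl was at 97.0 CPM in anterior B. The part of the sensory and interneuron markers in the group 5 differences was not tested.

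Genes with which Hox5 proteins act were examined from a list of cofactors. Of 12 matched cofactor genes 11 were tested and 0 passed the adjusted threshold in edgeR. At an unadjusted p under 0.05, 1 was higher in posterior cells and 0 were lower, against 2.28% and 4.21% of all tested genes. The 1 higher gene was MEIS2 ENSDARG00000098240, a homeodomain partner of Hox proteins. It was at 208, 293 and 407 CPM in posterior libraries B, G and R, against 118 and 160.2 CPM in anterior libraries B and G. Its log2 fold change was 1.12 (edgeR adjusted p 0.726). The related gene meis3 was at 890, 810.1 and 730 CPM in posterior libraries B, G and R, against 338 and 616 CPM in anterior libraries B and G. Its groups did not overlap either. Posterior libraries lay all above the anterior ones for 2 of the 11 genes, against 9.57% of all tested genes. They lay all below for 0 of the 11, against 12.3%. MEIS1 ENSDARG00000012078, the cofactor with most reads, overlapped between groups, at 998, 2087 and 1529 CPM in posterior libraries, against 1406 and 1943 CPM in anterior libraries. The median log2 fold change of the 11 cofactors was -0.16, against -0.055 for all tested genes.

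In the retinoic acid pathway, which acts upstream of hox genes, 27 of 44 matched genes were tested and 0 passed the adjusted threshold in edgeR. At an unadjusted p under 0.05, 2 were higher in posterior cells and 3 were lower, against 2.28% and 4.21% of all tested genes. The median log2 fold change of the 27 was 0.57, against -0.055 for all tested genes. DHRS3 ENSDARG00000044803, a retinaldehyde reductase, was at 409, 633 and 639 CPM in posterior libraries B, G and R, against 55.7 and 156 CPM in anterior libraries B and G. The receptor gene rxrga was at 254, 493 and 369 CPM in posterior libraries, against 86.3 and 141 CPM in anterior libraries. The genes lower in posterior cells were CRABP1 ENSDARG00000035904, a retinoic acid binding protein, RDH10 ENSDARG00000058730, a retinol dehydrogenase, and CYP26C1, a retinoic acid degrading enzyme. CRABP1 was at 33.5, 119 and 34.0 CPM in posterior libraries, against 481 and 1001 CPM in anterior libraries (log2 fold change -3.60; edgeR adjusted p 0.219). RDH10 was at 0, 49.7 and 7.76 CPM in posterior libraries, against 140.2 and 152 CPM in anterior libraries. CYP26C1 overlapped, at 0.454, 99.3 and 0.633 CPM in posterior libraries, against 0.767 and 778 CPM in anterior libraries. The retinoic acid synthesis gene ALDH1A2 was at 0 counts in all libraries but posterior R, where it reached 0.211 CPM. Of the Hgf/Met genes, known in zebrafish for a part in the targeting of vagus motor axons, 4 of 8 were tested. MET, the Hgf receptor, was at 0, 64.4 and 24.5 CPM in posterior libraries B, G and R, against 111 and 322 CPM in anterior libraries B and G (log2 fold change -2.89; edgeR adjusted p 0.726). GRB2 ENSDARG00000105276, an adaptor protein of receptor tyrosine kinases, was at 0, 11.6 and 21.4 CPM in posterior libraries B, G and R, against 0.295 and 0 CPM in anterior libraries B and G. Its relative grb2b was at 200.3, 68.8 and 118 CPM in posterior libraries, against 78.2 and 93.4 CPM in anterior libraries, so the groups of both genes overlapped.

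Genes whose pattern over the 5 libraries was most like that of a group 5 gene were ranked by Pearson r of log2(CPM + 1) among 3643 other genes with a mean of at least 50 CPM. With 5 libraries in 2 groups, any gene that separates the groups evenly scores high, and these values are a description. For HOXB5 ENSDARG00000013057 the nearest were ITM2C (r = 0.999), the Aurora kinase cofactor bora (r = 0.997) and NKAPL (r = 0.997), and 47 genes reached 0.95. For HOXB5 ENSDARG00000054030 they were TAF7, a subunit of the general transcription factor TFIID (r = 0.997), the cyclin-dependent kinase subunit cks2 (r = 0.996) and rbm4.3 (r = 0.996), and 58 genes reached 0.95. For hoxa5a they were hoxc4a (r = 0.995), cks2 (r = 0.995) and the deacetylase gene HDAC8 (r = 0.994), and 62 genes reached 0.95. For hoxc5a they were the nucleoside transporter gene SLC29A2 (r = 0.999), the DNA clamp gene PCNA (r = 0.998) and HES2 (r = 0.991), and 30 genes reached 0.95. Among the members, r was 0.992 between hoxa5a and HOXB5 ENSDARG00000054030, 0.975 between the HOXB5 duplicates and 0.838 to 0.906 between hoxc5a and the others. The pattern of hoxc5a, with its low posterior R library, was the one least like the rest.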

How the data were processed

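Per the labels' protocols, SMART-Seq v4 amplified the RNA of 100 picked cells per library and Nextera XT was used for library preparation. The submitters' processing notes name bcl2fastq 1.8.4, TopHat2 2.1.0, HTSeq 0.6.1 and the build GRCz10, with no role or order. The deposited files hold whole-number counts per Ensembl gene, made by the authors with no normalization. Reads given to genes were 69.0% to 72.5% of all reads listed. Reads given to no gene (9.17% to 9.97% on no annotated feature, 16.5% to 20.3% aligned to several places) stayed out of library sizes. No molecular identifiers are described, so intervals cover counting error only.

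Groups came from the source names, and the letters B, G and R from the titles. Counts were tested in edgeR 4.0.16 (R 4.3.3) with TMM factors, filterByExpr (minimum count 10, minimum total 15), estimateDisp, glmQLFit without its legacy form and glmQLFTest, with Benjamini-Hochberg adjustment over all 11827 tested genes and a threshold of 0.05. SEs are approximate (absolute log2 fold change over the root of F). Ratios of members were tested by exact permutation in scipy 1.17.1. Alternatives were RLE factors, other filters, DESeq2 1.42.0, limma-voom (limma 3.58.1), the legacy form of glmQLFit (added after seeing the data), the replicate letter as a block, and each library left out. A further anterior library was not analysed here.

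The members and lists were chosen with earlier results of these data known. The text names the 4 members, tested hox genes of their clusters, the 2 cofactors with the smallest p and the 2 with most CPM, the 2 retinoic acid and the 2 Hgf/Met genes of smallest p in each direction (MET was the only lower Hgf/Met gene), ISL1 and PHOX2A, and the 3 genes most like each member. A further cell type check under this rule is not reported here. Other marker genes are given within list sums. DRGX, LHX4, MNX1, mnx2b, kdrl, CYP26C1, ALDH1A2 and the untested hox genes seen in posterior R were chosen after their values were seen. So were en1b, lhx1a, PAX2, RET, gfra1a and, as a marker, PCNA. Symbols came from a table that named 26121 of 31953 identifiers. List symbols were looked up ignoring case, and symbols in capitals also after removing a closing a or b. A hox symbol in capitals was given its copy only where 1 copy was left for 1 identifier. RefSeq names and overlaps are from assembly GRCz12tu, whose coordinates were not used.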

Additional observations from a re-analysis of the deposited data

How the results depend on the processing

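The log2 fold changes of the 4 group 5 genes kept their sign in all 12 distinct alternatives (the 4 libraries with no block are those left without posterior R, and count once). They ran from 2.78 to 4.36 for HOXB5 ENSDARG00000013057, 1.21 to 1.61 for ENSDARG00000054030, 1.55 to 2.08 for hoxc5a and 1.80 to 3.01 for hoxa5a. An unadjusted p under 0.05 was found in 12, 12, 6 and 10 of these 12. The adjusted p passed the threshold only in DESeq2, for HOXB5 ENSDARG00000013057 (3.37) and ENSDARG00000054030 (1.41). It ran over the alternatives from 1.31e-05 to 0.925, from 1.85e-05 to 0.925, from 0.227 to 0.998 and from 0.0778 to 0.998. The count of genes past the adjusted threshold, 0 in edgeR with 768 at an unadjusted p under 0.05, was 252 in DESeq2 (157 higher in posterior cells) and 0 to 7 with 1 library left out (7 without anterior G, 1 without anterior B). The count at an unadjusted p under 0.05 ran from 502 (without posterior G) to 1009 (without anterior G) with 1 library left out.

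In the fit with a replicate block (letters B and G, 4 libraries), 211 genes had an unadjusted p under 0.05, and the group 5 values were 3.37, 1.49, 2.08 and 2.39 in the order above. The same 4 libraries with no block gave 3.27, 1.48, 2.07 and 2.37, with 524 genes at an unadjusted p under 0.05. Same-letter libraries did not deviate together across genes (correlation -0.0019 for B and 0.0063 for G), and the letters were not taken as pairs. The anterior deviations from their group mean mirror each other, so these correlations are not separate checks. They cannot tell whether libraries shared embryos or sessions. The differences in log2 ratio between members kept their sign in all 6 distinct alternatives each (the block gives the value without posterior R), from 1.56 to 2.75 for the HOXB5 duplicates and from 0.018 to 0.59 for hoxc5a over HOXB5 ENSDARG00000054030. The cause of each change was not tested.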
